A study of Homo sapiens with 8 samples.

Results

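The PC3 line was set against A549, LC2/ad and PC9, all labelled human lung adenocarcinoma cell lines, to find which microRNAs set it apart. The label PC3 here stands for a lung line, and a prostate cancer line carries the same name. MicroRNAs were measured by TaqMan quantitative PCR on 2 cards (A and B). Each line gave 1 control sample without TGF-β1 and 1 sample kept in 5 ng/ml TGF-β1, a growth factor, for 72 h. All 8 samples came from cells grown in RPMI medium with fetal bovine serum, and per the labels no line was authenticated by the submitters. The comparison thus held 2 PC3 samples and 6 samples of the other 3 lines, with treatment as a covariate and no repeat culture within a line and treatment. A Ct is the PCR cycle at which a product crosses the detection threshold, so a low Ct means much template and a Ct of 40 means no amplification. Every microRNA assay that reached a Ct no higher than 35 in any of the 8 samples entered, which was 372 of the 754 assays. Of these, 168 were at 35 or below in all 8 samples.

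MicroRNAs are short RNAs that guide Argonaute proteins to messenger RNAs, which are then translated less or degraded. Pairing rests mainly on the seed, bases 2 to 8 from the 5′ end, so microRNAs with the same seed can share targets although they are made from different genes. A hairpin precursor can yield a microRNA from each of its arms, and hairpins close together in the genome are often transcribed as 1 RNA. In the assay names a # marks the arm thought to be the less abundant when the cards were designed. In cultured cancer lines, the miR-200 family and miR-205 are known as microRNAs of epithelial cells, miR-34 as a target of p53, miR-10 and miR-196 as microRNAs of the HOX gene clusters, and miR-199a with miR-214 as microRNAs of fibroblasts and other mesenchymal cells.

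The microRNAs that the results turn on are shown with their seeds in capitals, as mature sequences from RefSeq on GRCh38.p14, because the results refer to their shared seeds and hairpins. The first 11 rose in PC3.
miR-199a-3p: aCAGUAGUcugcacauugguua
miR-214: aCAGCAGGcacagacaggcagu
miR-214#: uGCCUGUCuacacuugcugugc
miR-10b#: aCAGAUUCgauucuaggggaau
miR-218: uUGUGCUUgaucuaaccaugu
miR-146b-5p: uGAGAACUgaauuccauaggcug
let-7c: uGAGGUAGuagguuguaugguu
miR-99a#: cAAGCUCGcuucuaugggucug
miR-1271: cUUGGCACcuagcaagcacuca
miR-195: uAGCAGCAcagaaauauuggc
miR-497: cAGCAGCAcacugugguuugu
The next 5 were lower in PC3, and all but miR-34a, which is shown as the partner of miR-34a#, passed the test.
miR-31: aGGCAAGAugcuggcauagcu
miR-34a: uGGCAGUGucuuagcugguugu
miR-34a#: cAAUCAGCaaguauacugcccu
miR-335: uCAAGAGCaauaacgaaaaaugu
miR-100: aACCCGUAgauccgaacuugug
The last 4 share a seed with a microRNA above but did not pass the test.
miR-146a: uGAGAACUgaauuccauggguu
let-7a: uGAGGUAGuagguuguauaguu
miR-16: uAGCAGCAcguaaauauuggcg
miR-99a: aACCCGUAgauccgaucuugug
The miR-10b guide strand, which also rose, and miR-31#, which also fell, are named only.

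Levels are on a log2 scale relative to the mean microRNA of the same sample and card, so that a difference of 1 is 2-fold. A level could not go below 1 common floor per card, -5.85 on card A and -5.21 on card B, which is the highest level at which a Ct of 35 fell in any sample (PC9 control on both cards). A difference against a group whose samples were all at the floor is a lower bound on its size, written as at least or as a bound. Each sample is bulk RNA, in which fewer expressing cells and less microRNA per cell cannot be told apart. PC3 showed 272 assays at a Ct of 35 or below in the control and 271 with TGF-β1, and the 6 other samples showed 225 to 281, with both PC9 samples lowest. Of the 372 assays, 318 rose above the floor in at least 1 sample and were tested, and the other 54 stayed at or under it in all 8. In 79 of the 318 both PC3 samples were at the floor and in 17 all 6 others were, so that the sign of their difference was set by the filter.

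PC3 differed widely from each other line. The median absolute difference over the 318 assays was 0.92 against A549, 0.97 against LC2/ad and 0.92 against PC9, and 153, 151 and 150 assays differed by at least 2-fold. A549 and LC2/ad stood much closer to each other, with a median of 0.32 and 35 assays at least 2-fold apart. That is about the size of the difference between the control and TGF-β1 samples of one line, whose median was 0.16 for PC3, 0.22 for PC9, 0.28 for A549 and 0.38 for LC2/ad. Results are therefore given with A549 or LC2/ad left out where that changes them.

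Both PC3 samples lay above all 6 others in 71 assays (22.3% of the 318) and below all 6 in 43 (13.5%). The same counts were 54 and 54 for PC9, 26 and 21 for A549, and 10 and 4 for LC2/ad. With a gap of at least 2-fold between the line and the nearest other sample, PC3 had 33 assays above and 17 below, and PC9 had 27 and 19. PC3 and PC9 stood apart more often than A549 and LC2/ad. Each of A549 and LC2/ad had the other, close line among its comparison samples. Their counts are therefore no measure of how far a line usually stands apart.

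The test across all 318 assays was limma, with the line as a random block, treatment as a covariate and Benjamini-Hochberg adjustment. At an adjusted p under 0.05 it called 22 assays (6.92%), 16 higher in PC3 (5.03%) and 6 lower (1.89%). At an unadjusted p under 0.05 there were 66. In all 22, the PC3 samples did not overlap with the 6 others. In 7 of the 16 higher calls all 6 others were at the floor, and in 3 of the 6 lower calls both PC3 samples were. For these, the SE and p-value take the floor as a measured level and hold no spread within the floored group. With the same test, PC9 against the rest gave 18 higher and 3 lower. A549 and LC2/ad each gave 0 calls, with 7 and 1 assays at an unadjusted p under 0.05. Each again had the other, close line among the rest. The number of calls rested on which lines were compared: without A549 there were 8 higher and 0 lower, without LC2/ad 10 and 3, and without PC9 80 and 65, where the correlation within lines was estimated at 0.03 in place of 0.678. Leaving out the A549 control, the A549 TGF-β1 or the PC9 TGF-β1 sample left 3 lower calls each. With the deposited ratios, which take a Ct of 40 as a value, 3 of the 16 higher and 4 of the 6 lower calls were kept, and with 1 mean per line 11 and 1 were. PC3 is 1 line of 4, so an exact permutation that moves whole lines cannot give a p below 0.25.

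**Figure D1:**
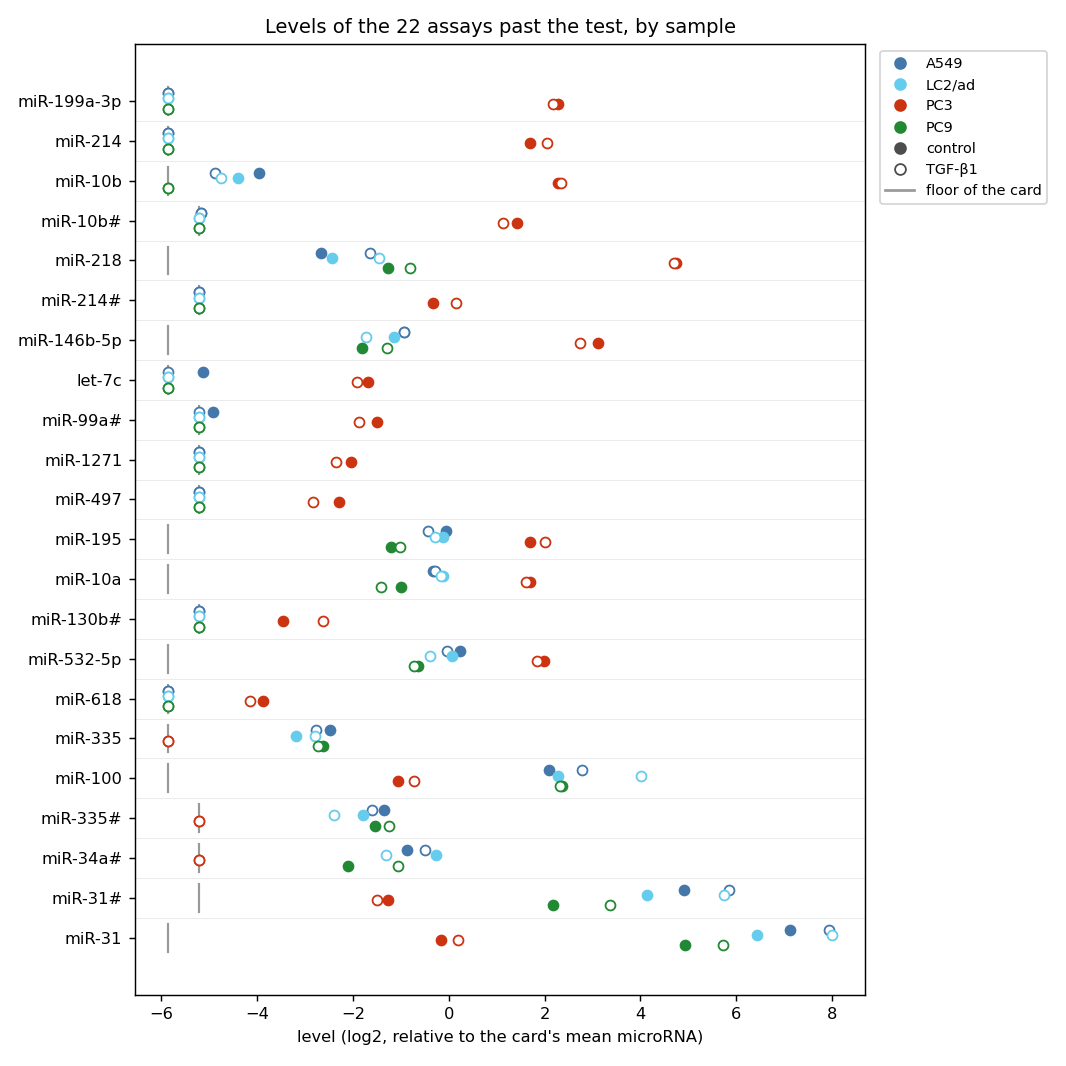
Level (log2, relative to the card's mean microRNA) of the 22 called assays in each of the 8 samples. Filled points are control samples, open points are TGF-β1 samples, and the grey mark is the floor of the card. In every assay the 2 PC3 points lie to one side of the other 6.

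The largest increase was in miR-199a-3p and miR-214. Their group is linked to the DNM3OS transcript on chromosome 1, which holds the miR-199a-2 and miR-214 hairpins and runs antisense within an intron of DNM3. miR-214 (chr1:172138816-172138837, minus strand) had a Ct of 25.7 in the PC3 control and 25.4 with TGF-β1, and did not amplify in any of the other 6 samples. Its level was at least 212-fold higher in PC3 (difference 7.73 ± 0.34, SE, limma adjusted p = 1.63e-05). RefSeq lists miR-199a-3p at chr1:172144554-172144575 and at chr19:10817429-10817450, in an intron of DNM2. Only this name was looked up, so other loci with the same sequence were not searched. miR-199a-3p had a Ct of 25.1 and 25.3 in PC3. Elsewhere it reached 34.5 in LC2/ad with TGF-β1 and 35.1 in the PC9 control, and it stayed at 40 in the other 4 samples. It was at least 271-fold higher (8.08 ± 0.31, adjusted p = 1.13e-05). The opposite arm miR-214# had a Ct of 28.8 and 28.4 in PC3 and 40 in all 6 others, at least 34.8-fold higher (5.12 ± 0.37, adjusted p = 0.000225). The remaining member, miR-199a-5p, was detected in PC3 at a Ct of 33.0 and 32.5 and in no other sample. It lay little above the floor and was not called (0.57, a bound, adjusted p = 0.451). Thus 3 of the 4 tested assays of this group were called higher, against 5.03% of all assays. All 4 were at the floor in the other 6 samples, so their direction was set by the filter. Their SE and p-values hold no spread among those 6 samples. miR-214 and miR-214# were called under each of the 27 alternative settings, and miR-199a-3p under all but the deposited ratios (adjusted p = 0.0972).

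miR-10b followed. It is made from the HOXD cluster, and its guide strand had a level of 2.29 and 2.35 in the PC3 control and TGF-β1 samples. The A549 levels were -3.96 and -4.87, the LC2/ad levels -4.39 and -4.75, and both PC9 samples were at the floor with a Ct of 40. PC3 was separated by more than 6 log2 units from the highest other sample, and the fitted difference was 7.26 ± 0.70 (154-fold, limma adjusted p = 0.00113). The opposite arm miR-10b# (chr2:176150368-176150389, plus strand) had a Ct of 27.1 and 27.4 in PC3 and 34.02 to 40 elsewhere, a difference of 6.48 ± 0.33 (adjusted p = 2.83e-05). With the deposited ratios both arms lost the call, and miR-10b also lost it with 1 mean per line and with control samples alone. miR-10a (chr17:48579904-48579926, minus strand, within HOXB3) was detected in all lines, at 1.69 and 1.62 in PC3 and -1.42 to -0.12 in the others. Its difference of 2.20 ± 0.50 passed narrowly (adjusted p = 0.0472) and passed in only 6 of the 27 alternatives. The call was lost with the A549 or the LC2/ad line left out. It was lost when any 1 of the 8 samples was left out. The opposite arm miR-10a# was near the floor, at -4.85 and -4.58 in PC3 and -5.21 to -5.06 in the others. It was not called (0.45, limma adjusted p = 0.533). How far the miR-10a and miR-10b assays also read each other was not tested. Of the 6 tested HOX-locus assays, 3 were called higher, against 5.03% of all assays, and the median difference was 1.33, against -0.06. The list did not move as a whole: miR-196b was at -4.22 and -4.64 in PC3 and -3.56 to -1.44 in the others (-1.77, adjusted p = 0.238). miR-615-3p, chosen after its values were seen, was detected in PC3 alone at a Ct of 32.9 and 33.5, close to the floor.

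miR-218 was present in every line and much more so in PC3. It comes from introns of SLIT2 (chr4:20528299-20528319) and SLIT3 (chr5:168768211-168768231), genes of secreted guidance proteins, and the assay cannot tell which. The level was 4.75 and 4.71 in PC3, -1.26 and -0.82 in PC9, and lower still in A549 (-2.66 and -1.65) and LC2/ad (-2.43 and -1.47). The difference was 6.44 ± 0.64 (87.0-fold, limma adjusted p = 0.00113). Because all 8 samples were above the floor, this fold does not rest on a detection limit. The call was lost with 1 mean per line and with control samples alone, and its adjusted p over the alternatives reached 0.0718.

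miR-146b-5p rose and its relative miR-146a was lowest in PC3. Both are known as NF-κB-responsive microRNAs that target IRAK1 and TRAF6, and they share a seed. Counted from 1 at the 5′ end, miR-146b-5p differs from miR-146a by G18A and U21C over the shared length. miR-146b-5p (chr10:102436520-102436542) was at 3.12 and 2.75 in PC3 and -1.80 to -0.93 in the other 6 samples, a difference of 4.24 ± 0.56 (18.9-fold, limma adjusted p = 0.0043). It was lost without A549, with control samples alone and with the deposited ratios, which gave the highest adjusted p of the alternatives, 0.0821. miR-146a (chr5:160485372-160485393) was at -3.02 and -2.72 in PC3, -0.19 to 0.42 in A549 and LC2/ad, and 5.76 and 5.82 in PC9. Its difference of -4.86 was not called (SE 2.08, adjusted p = 0.238), with PC9 far above the other lines.

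The chromosome 21 hairpins of miR-99a and let-7c lie within MIR99AHG, less than 1 kb apart, and their assays did not move together. let-7c (chr21:16539838-16539859) had a Ct of 29.1 and 29.4 in PC3 and 33.0 to 40 elsewhere, and only the A549 control was above the floor. The difference was 3.93 ± 0.44 (limma adjusted p = 0.00189). It ranged from 1.26 to 5.20 over the alternatives, and the call was lost with a Ct limit of 38, the deposited ratios or control samples alone. miR-99a# (chr21:16539138-16539159) was at -1.49 and -1.86 in PC3, -4.92 in the A549 control and at the floor in the other 5 samples, a difference of 3.49 ± 0.35 (adjusted p = 0.00113). That call was lost with a Ct limit of 32, where the difference was 0.73, and with the deposited ratios. The other arm, miR-99a, went the opposite way: PC3 was lowest at -2.53 and -2.51, against -1.38 to 0.70 in the others, and was not called (-1.77, adjusted p = 0.282). miR-99a differs from miR-100 at a single base, U16A, and miR-100 itself fell in PC3.

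**Figure D2:**
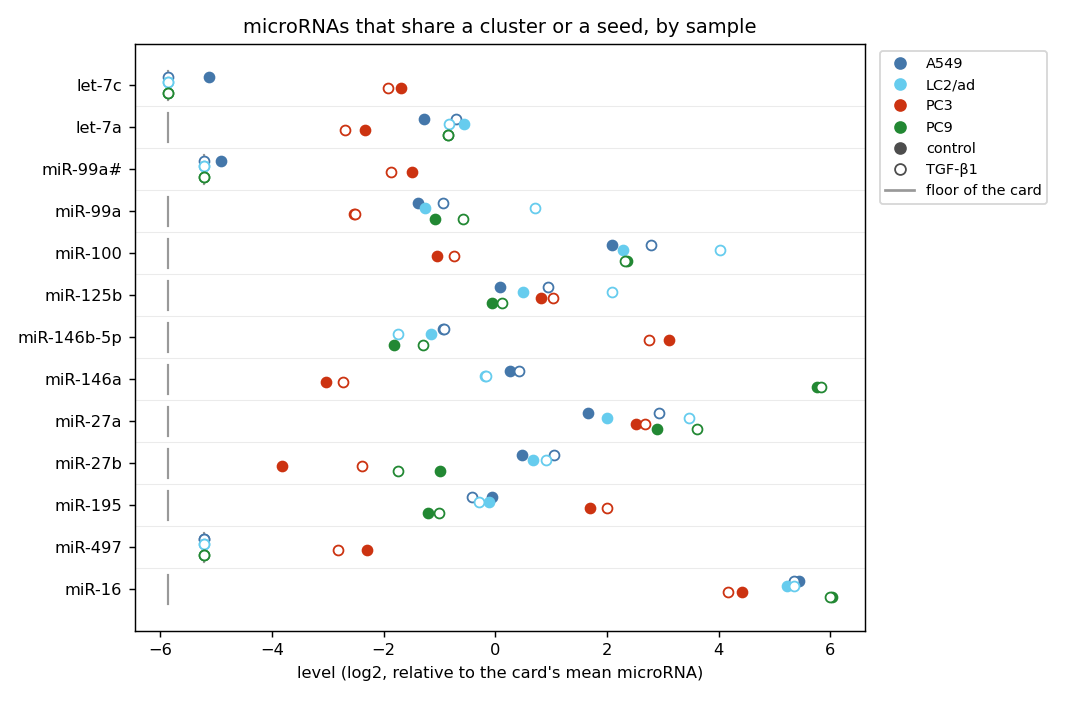
Level (log2) of microRNAs that share a cluster or a seed, by sample, with control samples filled, TGF-β1 samples open and the floor in grey. let-7c, miR-99a#, miR-146b-5p, miR-195 and miR-497 lie highest in PC3, whereas let-7a, miR-99a, miR-100, miR-146a, miR-27b and miR-16 lie lowest there.

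let-7a, the relative of let-7c with the substitution G19A, was named after its values were seen. It was lowest in PC3 at -2.33 and -2.69, against -1.28 to -0.55 in the others (-1.67, adjusted p = 0.0962). Of the 9 tested let-7 and miR-98 assays, 1 was called higher, against 5.03% of all assays, and 3 lay below all other samples, against 13.5% of all. For let-7a and let-7c, and for miR-99a and miR-100, how far each assay also reads its near-identical relative was not tested.

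miR-195 and miR-497 come from the same host transcript, MIR497HG, on chromosome 17 and carry the seed of miR-16, a family known to act on cell cycle regulators. miR-497 (chr17:7017979-7017999) was at -2.29 and -2.82 in PC3 and at the floor in all 6 others, at least 6.30-fold higher (2.66 ± 0.38, limma adjusted p = 0.00535). It was lost without A549 or LC2/ad, with the deposited ratios and with a Ct limit of 38 or 32, and at 32 the difference was 0.05. miR-195 (chr17:7017667-7017687) was at 1.70 and 2.01 in PC3, -0.43 to -0.06 in A549 and LC2/ad, and -1.20 and -1.01 in PC9 (2.37 ± 0.52, adjusted p = 0.0427). The call was lost with the A549 or the LC2/ad line left out. It passed in 10 of the 27 alternatives and was lost without any 1 sample of A549, LC2/ad or PC9 and without the PC3 TGF-β1 sample. miR-16, made from other loci, was lowest in PC3 at 4.41 and 4.17 against 5.22 to 6.03 (-1.27, adjusted p = 0.117). The 11 tested assays of the seed family and its clusters held 2 called higher, the chromosome 17 pair, against 5.03% of all assays. For miR-497 the direction was set by the filter, and its SE and p-value hold no spread among the 6 others.

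The other 4 assays called higher were smaller or close to the limit of detection. miR-1271 (chr5:176367960-176367981, within ARL10), which shares the seed of miR-96, had a Ct of 30.6 and 30.9 in PC3. It was under the floor in the 6 others, at least 8.09-fold higher (3.02 ± 0.33, limma adjusted p = 0.00163), and was lost without A549 or LC2/ad, with the deposited ratios and with a Ct limit of 38 or 32. The remaining 3 were named only after their values were seen. miR-532-5p (chrX:50003167-50003188) was at 1.98 and 1.85 in PC3 and -0.73 to 0.24 in the others (adjusted p = 0.0275). miR-130b# had a Ct of 31.96 and 31.19 in PC3 (adjusted p = 0.0422), miR-618 of 31.3 and 31.6 (adjusted p = 0.0172), and both were at the floor elsewhere. These 3 passed in 13 of 27, 13 of 26 and 15 of 26 alternatives. They were lost with the A549 or the LC2/ad line left out, and also without either single sample of A549 or of LC2/ad. Without the PC9 TGF-β1 sample all 3 were also lost, and without the PC9 control miR-130b# was.

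Among the assays above the floor in all 8 samples, miR-31 had the largest fall in PC3. It is made from MIR31HG on chromosome 9 (chr9:21512158-21512178), close to the CDKN2A locus. It was at -0.16 and 0.20 in PC3. PC9 had 4.93 and 5.73, A549 had 7.11 and 7.94, and LC2/ad had 6.42 and 8.00. Every other sample was thus more than 4 log2 units above PC3, and the difference was -6.67 ± 0.91 (102-fold lower, limma adjusted p = 0.0046). The opposite arm miR-31# was at -1.28 and -1.49 in PC3 and 2.18 to 5.84 in the others (-5.75 ± 1.14, 53.9-fold lower, adjusted p = 0.0298). All 8 samples detected both arms. Both calls were lost without A549, with 1 mean per line and with the control or TGF-β1 samples alone. miR-31# was also lost without LC2/ad or any 1 sample of A549 or LC2/ad, without the PC3 TGF-β1 or the PC9 TGF-β1 sample, with U6 and with the deposited ratios.

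Neither arm of miR-34a amplified in PC3. miR-34a is a direct transcriptional target of p53 (MIR34AHG, chr1:9151735-9151756). It had a Ct of 40 in both PC3 samples, 26.6 to 27.6 in A549 and LC2/ad and 31.9 and 31.4 in PC9. The difference of -5.44 ± 1.27, a bound, missed the threshold (limma adjusted p = 0.0518) and passed it in 10 of the alternatives, among them quantile normalization and a Ct limit of 38. miR-34a# had a Ct of 40 in PC3 and 29.0 to 31.9 elsewhere, and was called, at least 18.3-fold lower (-4.20 ± 0.87, adjusted p = 0.0354). That call was lost without A549, LC2/ad, any 1 sample of A549 or PC3, or the PC9 TGF-β1 sample. It was also lost with RNU44 and RNU48, 1 mean per line, control samples alone or a Ct limit of 32, where the difference was -1.39. miR-34b, by 1 assay on card B, was at the floor in PC3 and -3.28 to -0.50 in the others (-3.29, a bound, adjusted p = 0.0962). Another miR-34b assay on card B did not show this fall. That assay was at the floor in every sample but the PC9 control, at -4.95 (-0.04, a bound, limma adjusted p = 0.949). Of the 7 tested miR-34 and miR-449 assays, 1 was called lower, against 1.89% of all assays. In 6 of them both PC3 samples were at the floor, so their direction was set by the filter.

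miR-335 and miR-335#, from an intron of the imprinted gene MEST on chromosome 7, both fell. miR-335 (chr7:130496126-130496148) had a Ct of 37.8 and 40 in PC3 and 30.3 to 31.8 in all 6 others. It was at least 8.52-fold lower (-3.09 ± 0.41, limma adjusted p = 0.0043). miR-335# (chr7:130496162-130496183) had a Ct of 34.72 and 34.98 in PC3 and 30.4 to 31.3 elsewhere, at least 11.8-fold lower (-3.56 ± 0.51, adjusted p = 0.00535). Their levels in the other 3 lines lay close together. Both calls were lost without A549 and with a Ct limit of 32, where the differences were -0.17 and -0.75. miR-335 was also lost with control samples alone, and miR-335# with TGF-β1 samples alone, 1 mean per line or RNU44 and RNU48.

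miR-100, from MIR100HG on chromosome 11 (chr11:122152275-122152296), shares the seed of miR-99a. It was at -1.05 and -0.73 in PC3. PC9 had 2.37 and 2.32, A549 had 2.09 and 2.78, and LC2/ad had 2.28 and 4.01. It was 11.6-fold lower (-3.54 ± 0.78, limma adjusted p = 0.0431). The call was lost without A549, without LC2/ad and without any 1 sample of A549, PC3 or PC9. It was also lost with the deposited ratios, each sample's own limit, 1 mean per line, TGF-β1 samples alone and a filter of at least 2 samples above the floor. Of the 9 tested miR-99, miR-100 and miR-125 assays, 1 was called lower and 1, miR-99a#, higher, against 1.89% and 5.03% of all assays, and the median was -1.12.

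**Figure D3:**
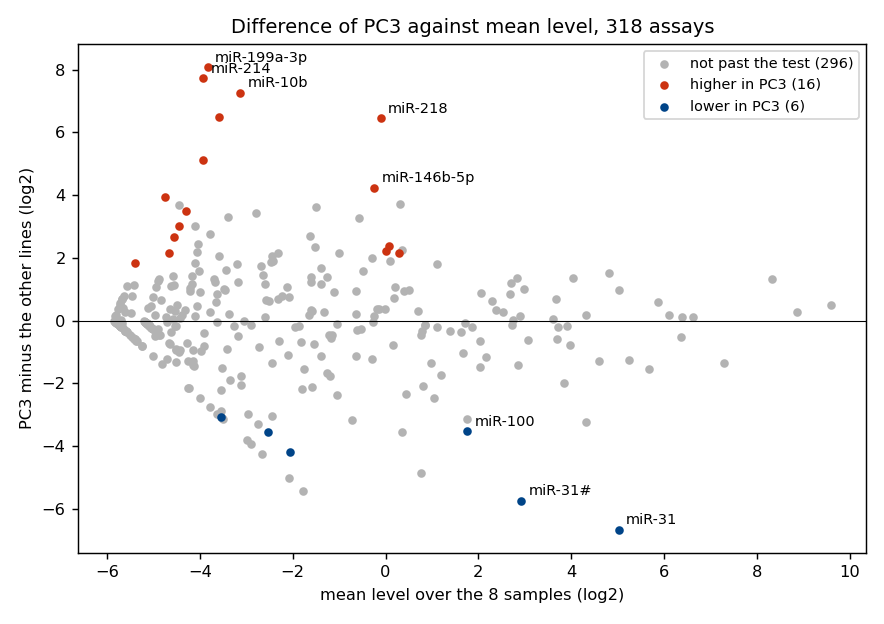
Difference of PC3 from the other lines (log2) against the mean level over the 8 samples (log2) for the 318 tested assays, with the 16 called higher and 6 called lower in colour. The calls span low and high mean levels, and the median of all assays lies at -0.06.

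Assays at or near the limit of detection show PC3 by presence. In both PC3 samples and none of the 6 others, 12 of the 372 assays had a Ct of 35 or below. The same counts were not made for the other lines, so whether such a number is particular to PC3 was not tested. Besides miR-214, miR-214#, miR-199a-5p, miR-1271 and miR-615-3p these were miR-23a, miR-363, miR-597, miR-181c#, miR-25#, miR-1303 and miR-1296, a list that goes beyond the rule for named assays. Of the latter 7, miR-1296 was at a Ct of 32.5 and 32.8 in PC3 and at 40 in all others (1.08, a bound, limma adjusted p = 0.0962). Some of the 12 rest on the cut-off. In the PC9 control miR-1271 had a Ct of 35.02 and miR-1303 of 35.42, miR-181c# had 35.1 in the LC2/ad control, and miR-597 had 35.4 in A549 with TGF-β1. The reverse, detection in all 6 others and in neither PC3 sample, held for 8 of the 372 assays: miR-34a, miR-34a#, miR-335, miR-23b, miR-27b#, miR-200a, miR-886-3p and miR-886-5p. PC3 had more detected assays than PC9, so a low level in PC9 is nearer the limit than the same level in PC3.

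Epithelial microRNAs divided within PC3. The miR-200a, miR-200b and miR-429 cluster on chromosome 1 was at or under the floor in both PC3 samples. miR-200b was at -4.33 to -2.0 in A549 and LC2/ad and at 3.34 and 3.42 in PC9 (-5.03, a bound, limma adjusted p = 0.282). miR-200c, from the separate cluster on chromosome 12, was at 2.25 and 1.85 in PC3, between -4.46 to -3.30 in A549 and LC2/ad and 6.91 and 6.68 in PC9 (2.25, adjusted p = 0.877). miR-141, its cluster partner named after its values were seen, had the same order, with -3.17 and -2.84 in PC3, the floor in A549 and LC2/ad, and 0.04 and 0.34 in PC9. miR-205 was detected in PC9 alone. Of the 8 tested assays of the list, limma called 0, against 6.92% of all assays, with 0 at an unadjusted p under 0.05, against 20.8%. In 6 of the 8 both PC3 samples were at the floor. miR-203, a keratinocyte microRNA outside the list, was at the floor in PC3 and highest in PC9 at 1.68 and 1.83 (-3.82, a bound, adjusted p = 0.396). miR-886-5p, from a vault-like RNA, was likewise at the floor in PC3, -4.96 to -2.70 in A549 and LC2/ad and 2.93 and 2.42 in PC9 (-4.25, a bound, adjusted p = 0.384).

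Apart from miR-199a and miR-214, markers of other cell types were mostly undetected or detected in several lines, and limma called 0 of them. None of the 10 blood assays on the cards was detected in either PC3 sample, and miR-122 of liver was detected nowhere. Of the 8 muscle and 13 pluripotency assays, only miR-133a and miR-302a were detected, each in 1 PC3 sample and nowhere else. Both were named after their values were seen. Smooth muscle-associated miR-143 and miR-145 had a Ct of 36.6 and 40, and of 35.1 and 36.1, in PC3. They were highest with TGF-β1 in LC2/ad, at a Ct of 31.9 and 31.3. Endothelial miR-126 was detected in every sample, at 3.77 and 3.47 in PC3 and 1.89 to 3.27 elsewhere (1.21, limma adjusted p = 0.284). Its opposite arm miR-126# was at 0.63 and 0.58 against -2.58 to -0.57 (2.15, adjusted p = 0.0962). Neuroendocrine miR-375 was at -2.21 and -2.24 in PC3, above all 6 others, of which the highest was -2.68 (1.62, limma adjusted p = 0.297). The miR-7 and miR-7# levels of PC3 overlapped with the others. The neural list had 0 calls by limma among 6 tested assays, against 6.92% of all, and 2 at an unadjusted p under 0.05, against 20.8%. In 5 of the 6 the difference was above 0, against 147 of all 318 assays. Of the 6, 3 lay above all other samples, against 22.3% of all assays. The untested miR-124 and miR-153, named after their values were seen, were each detected in 1 PC3 sample and nowhere else. miR-9 was at 3.07 and 3.11 in PC3, above PC9 at 1.12 and 0.68 and the rest at -1.81 to -0.97 (3.70, adjusted p = 0.0632). PC3 thus held miR-199a-3p, miR-214 and miR-214# at low Ct, with no detected miR-143, miR-145 or blood microRNA. The cards hold no microRNA that defines lung adenocarcinoma, so the tissue label was not checked against one.

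Of 20 tested assays of the miR-17 cluster and its paralogs, known as targets of MYC, 18 had a difference above 0. Over all 318 assays 147 did. In 2 of the 20 all other samples were at the floor, and in 1 both PC3 samples were. The median difference was 0.86, against -0.06 over all assays. limma called 0 of the 20 and gave 4 an unadjusted p under 0.05, a share close to the 20.8% of all assays. In 7 of the 20 PC3 lay above all 6 other samples, against 22.3% of all. All 7 miR-130, miR-301 and miR-454 assays had a difference above 0 (median 1.89), and 5 lay above all others, against 22.3% of all assays. Of the 7, 1 was called, miR-130b#, against 5.03%. For miR-130b# all 6 others were at the floor, so its direction was set by the filter. miR-130a was at 0.27 and 0.54 in PC3, -1.94 to -1.50 in A549 and LC2/ad and -3.45 and -3.53 in PC9 (2.71, adjusted p = 0.0831). The signs of both medians held under every alternative that changed the levels or the samples.

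The chromosome 9 cluster of miR-23b and miR-27b was low in PC3. miR-27b was at -3.82 in the PC3 control and -2.38 with TGF-β1, -1.75 and -0.99 in PC9 and 0.47 to 1.05 in A549 and LC2/ad (-3.16, limma adjusted p = 0.164). miR-27b# and miR-23b were undetected in PC3 and detected in all 6 others. miR-27a, which differs from miR-27b by C19U only and comes from chromosome 19, was at 2.52 and 2.69 in PC3, inside the 1.66 to 3.60 of the others. Of the 7 tested miR-23, miR-27 and miR-24 assays, limma called 0, against 6.92% of all assays, with 2 at an unadjusted p under 0.05, against 20.8%. Their median difference was -1.34, with both PC3 samples at the floor in 2 of them, and miR-27a changed sign in 8 of the alternatives.

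Hairpins within 10 kb of each other formed 27 clusters with at least 2 tested assays. In 9 of them no assay had all PC3 samples or all other samples at the floor, and in 6 of these 9 all assays differed from the other lines in the same direction. The X-chromosome cluster in CLCN5, with miR-362, miR-501, miR-502, miR-532 and miR-660, had 8 of 8 assays higher in PC3, with a median of 1.48. In 6 of them the PC3 samples lay above all others, against 22.3% of all assays, and miR-532-5p alone was called, against 5.03%. In 1 of the 8 the other lines were all at the floor. All 4 miR-191 and miR-425 assays and all 6 of the miR-106b, miR-93 and miR-25 cluster were higher too, with medians of 1.88 and 0.91. limma called 0 in either cluster, against 6.92% of all assays. In 1 of the 6, miR-25#, the other lines were all at the floor, so its direction was set by the filter. Over all 318 tested assays, 147 had a difference above 0.

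Arms of the same hairpin mostly agreed in sign. Over 66 hairpins with both arms tested, 54 (81.8%) differed in the same direction, with Pearson's r of 0.74 and Spearman's rho of 0.70 across hairpins, which share samples and normalization. Of the 44 hairpins in which neither arm had a whole group at the floor, 35 differed in the same direction. Where both arms differed by at least 2-fold, 19 of 20 had the same sign and miR-99a was the exception. In 11 hairpins at least 1 arm was called, and in 4, namely miR-10b, miR-214, miR-31 and miR-335, both were. Some arms differed far more than their partners. miR-106b# was at 1.19 and 1.26 in PC3 and -3.24 to -0.60 elsewhere (3.64, limma adjusted p = 0.0962), whereas miR-106b differed by 0.87. The same held for miR-425# at 3.44 against 0.73 for miR-425, and for miR-191# at 3.02 against 0.60 for miR-191. These 3 hairpins were named after their values were seen, and whether their arms differ was not tested.

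Few assays differed between the control and TGF-β1 samples of PC3. Among the 22 called assays, the largest absolute difference between the PC3 TGF-β1 and control samples was 0.82, and 0 reached 2-fold. The selection partly set this, because the test favours a small gap between the 2 PC3 samples. In 3 of the 22 both PC3 samples were also at the floor and could not differ. Over all 318 assays, 13 differed at least 2-fold between the 2 PC3 samples, against 49 in PC9, 36 in A549 and 69 in LC2/ad. miR-27b rose by 1.44 with TGF-β1 and stayed below every other sample. With 1 sample per treatment, these differences have no replicate check.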

How the data were processed

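TaqMan microRNA cards were read for 1 control and 1 TGF-β1 sample of 4 lines. The raw Ct, a score with no normalization, is as deposited by the authors, with 40 for no amplification in 40 cycles per the labels' protocols. The deposited ratio was calibrated to the A549 control, per the file headers; recomputing it from Ct and U6 gave a largest log2 gap of 4.07e-06. Instrument software was not given in the sources used here. Groups came from the line and treatment characteristics. The source names word the exposure the other way round and were not used. Each Ct was subtracted from the sample's mean Ct of the assays that every sample detected (117 on card A, 51 on card B), then floored. Testing used limma 3.58.1 in R 4.3.3, with duplicateCorrelation for the line (consensus 0.678). It was two-sided, with Benjamini-Hochberg adjustment over 318 assays. A simulation was also run, with 1 common spread between lines and 1 within lines for all assays. It lacked the unequal spreads and the close pair of lines seen here, so it does not show how the test performs on these data. With 1 culture per line and treatment, p-values measure the spread between these samples, and Ct values carry no counts, so no counting interval is given.

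The members and lists were chosen with earlier results of these data known. Assays named are the 12 largest calls per side (filled below by the largest differences without overlap), those detected only in PC3 or only in the others, up to 4 examples per list and their opposite arms; others are said to be chosen after their values were seen. The arm of an assay without an arm suffix follows current naming. RefSeq held 32 of 34 mature names looked up, and 279 of the 318 tested assays matched a hairpin.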

Additional observations from a re-analysis of the deposited data

Results flagged for a closer look

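In miR-100, 1 of the 6 samples of the other lines stood apart from the rest. The LC2/ad TGF-β1 sample, at 4.01, was highest, and its gap to the next sample was 0.642 of the whole range, above Dixon's critical value for 6 samples. Chance gives such a gap in about 1 of 20 groups. Without that sample miR-100 kept its call, which was lost when both LC2/ad samples were left out.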

How the results depend on the processing

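None of the 22 calls changed direction under any of 27 alternatives. The count of assays higher in PC3 (16) was 29 with a Ct limit of 32, 9 with the deposited ratios, 10 with control samples alone, 42 with samples taken as independent and 84 with the line as a fixed term. It ranged from 8 to 80 with a sample or line left out. The count lower in PC3 (6) was 10 with a Ct limit of 38, 10 with the median as normalizer, 12 with quantile normalization, 2 with 1 mean per line, 2 with control samples alone, 25 with samples taken as independent and 65 with the line as a fixed term. Left-out samples and lines gave 0 to 65. Without treatment as a covariate, and with the line kept as a block, 22 were higher and 12 lower. With 1 mean per line, 11 were higher, all among the 16. Assays below all others (43) were 27 with a Ct limit of 32, 74 with the deposited ratios, 121 with each sample's own limit, and 44 to 80 with a sample or line left out. The deposited ratios moved the median of all assays from -0.06 to 0.42, and each sample's own limit moved it to -0.22. miR-141, not called, turned to -0.91 with a Ct limit of 32 and ranged from -0.17 (without A549 or LC2/ad) to 2.85 (without PC9) with a sample or line left out. miR-27a turned to 0.032 with a Ct limit of 32, 0.16 with U6 or the deposited ratios, 0.022 with RNU44 and RNU48, 0.12 with quantile normalization, 0.33 with control samples alone or without the PC3 TGF-β1 sample, and 0.09 without PC9, and left-out samples and lines ranged from -0.65 to 0.33. The cause was not tested. Ct values above 32 rest on few template copies, so levels near the floor are the least precise.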
